A study of Mus musculus with 12 samples.

Results

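The 7 genes described here, Pdpn, Npy, Angptl2, Emp1, Dio2, Rgl1 and Bcar3, were chosen for a strong rise in mouse dendritic cells that had met necrotic tumour cells, in both genotypes sequenced. They are 7 of the 11786 genes in the table, and all 7 had a row. They were selected on the measured lysate change, cells with lysate minus cells alone, in each genotype, so those changes are given as a description with no test. The libraries came from dendritic cells grown from mouse bone marrow with the cytokine GM-CSF. They formed 4 groups of 2 libraries: cells labelled ythdf1-/- with tumour lysate, cells labelled ythdf1-/- alone, wild-type cells with tumour lysate, and wild-type cells alone. The lysate was necrotic B16-OVA, a mouse melanoma line that carries ovalbumin, added overnight, after which the dendritic cells were purified. Ythdf1 encodes a cytoplasmic protein that recognises N6-methyladenosine, a chemical mark on mRNA. The nature of the knockout allele, the age of the mice and the purity of the cells after the last step were not given in the sources used here. Nor is it said that the 2 libraries of a group stem from separate animals or cultures, so each p-value reflects the spread between these libraries alone, which may be technical.

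GM-CSF cultures of bone marrow give a mixture of dendritic cells and macrophage-like cells that take up dead cells and their debris. The 7 genes act at different places in such a cell. Pdpn and Emp1 encode membrane proteins of the cell surface. Npy and Angptl2 encode secreted proteins, a neuropeptide and an angiopoietin-like glycoprotein. Rgl1 and Bcar3 encode cytoplasmic signalling proteins that act on small GTPases, and Dio2 encodes an enzyme that activates thyroid hormone inside the cell.

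Values are log2 levels per gene, scaled between libraries by the authors. Depth is unknown because no counts are in the table, and a change on this scale is understated for genes with few reads. A gene was called changed where limma's moderated test across all genes gave a Benjamini-Hochberg adjusted p below 0.05, and rose and fell are used of partner and marker genes only for such calls. Library medians lay between 8.53 and 8.55, and replicate libraries of a group correlated across genes at 0.997 to 0.999 (Pearson's r over genes, which are not independent). Between replicates the log2 levels differed with an SD of 0.11 to 0.16. Ythdf1 itself (Entrez 228994) read 9.51 and 9.46 in KO-labelled cells with lysate and 9.72 and 9.58 in wild-type cells with lysate, and it read 9.53 and 9.43 in KO-labelled cells alone and 9.58 and 9.43 in wild-type cells alone. The genotype difference of Ythdf1 missed the threshold with lysate (adjusted p = 0.202) and alone (adjusted p = 0.85), so the genotype is called by its label throughout.

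The 7 genes were chosen for a rise with lysate, so that they moved together was set by the choice. The sequence before their annotated start was read from RefSeq (GRCm38.p6, a later build than the mm9 that the submitters name). Windows ran from 250 bases before to 50 bases after each start, and all 7 genes matched, with 10 starts in all. Of 9 short motifs looked for on both strands, the E-box CACGTG lay in the first listed start of 3 genes, Pdpn, Rgl1 and Bcar3. That is 3 of the 10 starts, and 7.15% of the 32851 windows in the table hold the E-box. Its inner part is also the hypoxia response core ACGTG, which was in the same 3 genes and in 19.6% of all windows. The 250 bases before the start of these 3 genes are shown for that shared motif, with matches to any of the 9 motifs in capitals.
Pdpn, chr4:143299565-143299814, strand -: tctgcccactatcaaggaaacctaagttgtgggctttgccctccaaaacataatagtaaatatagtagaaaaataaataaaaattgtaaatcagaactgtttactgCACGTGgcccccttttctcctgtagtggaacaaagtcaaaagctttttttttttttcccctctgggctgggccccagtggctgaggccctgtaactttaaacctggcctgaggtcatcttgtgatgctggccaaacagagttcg
Rgl1, chr1:152766306-152766555, strand -: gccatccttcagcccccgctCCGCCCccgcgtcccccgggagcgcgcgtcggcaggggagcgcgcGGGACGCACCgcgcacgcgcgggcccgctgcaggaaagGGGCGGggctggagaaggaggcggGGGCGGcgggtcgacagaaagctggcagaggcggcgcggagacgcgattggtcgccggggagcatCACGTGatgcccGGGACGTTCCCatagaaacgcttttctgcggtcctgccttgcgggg
Bcar3, chr3:122419507-122419756, strand +: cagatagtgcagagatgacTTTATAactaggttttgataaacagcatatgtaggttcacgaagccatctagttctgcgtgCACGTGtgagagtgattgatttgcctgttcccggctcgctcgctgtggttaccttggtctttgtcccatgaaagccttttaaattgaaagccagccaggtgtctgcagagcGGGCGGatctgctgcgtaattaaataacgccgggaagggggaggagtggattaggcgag
The E-box stands at -144 to -139 from the start in Pdpn, at -58 to -53 in Rgl1 and at -170 to -165 in Bcar3, so its place is not shared.

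The window of Dio2 held an overlapping pair of matches to the CRE core TGACGT, 1 on each strand, at -95 to -88, and a TATA box (TATAAA) at -30 to -25. The CRE core is in 7.51% of all windows and the TATA box in 13.6%. Emp1 had 2 matches to the AP-1 motif TGANTCA, at -145 to -139 and -25 to -19, and 2 to the STAT motif TTCNNNGAA, at -120 to -112 and -22 to -14, the second of which overlaps an AP-1 match. AP-1 is in 7.81% of all windows and the STAT motif in 8.3%. Npy had 1 match to the NF-kB pattern (GGGA, then 4 bases of any kind, then CC), at -78 to -69, which 20.7% of all windows hold and which was also in Rgl1. The windows of Dio2 and Emp1 are shown for these matches, and that of Npy because Npy had the clearest genotype difference among the 7.
Dio2, chr12:90739039-90739288, strand -: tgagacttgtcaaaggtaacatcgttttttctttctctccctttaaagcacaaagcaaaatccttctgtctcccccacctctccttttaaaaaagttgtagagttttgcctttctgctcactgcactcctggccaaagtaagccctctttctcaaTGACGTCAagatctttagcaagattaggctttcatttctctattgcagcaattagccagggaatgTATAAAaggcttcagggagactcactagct
Emp1, chr6:135362681-135362930, strand +: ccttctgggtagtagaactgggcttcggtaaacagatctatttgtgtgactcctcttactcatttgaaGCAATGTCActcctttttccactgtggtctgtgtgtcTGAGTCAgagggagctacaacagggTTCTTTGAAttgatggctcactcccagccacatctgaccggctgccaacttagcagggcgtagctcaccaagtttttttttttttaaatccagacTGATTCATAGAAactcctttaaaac
Npy, chr6:49822460-49822709, strand +: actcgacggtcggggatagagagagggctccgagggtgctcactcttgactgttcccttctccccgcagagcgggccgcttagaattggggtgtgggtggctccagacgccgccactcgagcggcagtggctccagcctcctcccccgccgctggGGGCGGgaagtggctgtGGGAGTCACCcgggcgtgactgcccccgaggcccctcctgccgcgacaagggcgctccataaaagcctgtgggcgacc
The GC box GGGCGG was in the windows of 6 of the 7 genes, all but Dio2. That is 6 of the 10 starts, and 35.7% of all windows hold it. Angptl2 also held a CRE core and, over the same bases, a match to the NRF2 pattern TGACNNNGC, which was in Emp1 as well and in 12.4% of all windows. No motif was in all 7 genes, and the second listed starts of Emp1, Rgl1 and Bcar3 held none of the 9. A match is a run of letters and no evidence of binding.

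Pdpn and Emp1, the surface genes, stood well above their untreated level after lysate in both genotypes. Pdpn (Entrez 14726) encodes podoplanin, a mucin-type glycoprotein that binds the platelet receptor CLEC-2 and links to the actin cortex through ezrin and moesin. Its log2 level was 10.58 and 10.57 in KO-labelled cells with lysate, against 9.51 and 9.47 in KO-labelled cells alone. It was 11.04 and 10.88 in wild-type cells with lysate, against 9.52 and 9.48 in wild-type cells alone. The groups did not overlap in either genotype, and the KO-labelled libraries with lysate lay between the untreated libraries and the wild-type libraries with lysate. The lysate change was 1.09 ± 0.073 in KO-labelled cells (log2, SE of the limma fit), which is 2.13-fold, and 1.46 ± 0.073 in wild type, which is 2.75-fold.

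Emp1 (Entrez 13730) encodes a tetraspan membrane protein of the family of peripheral myelin protein PMP22. Emp1 read 12.06 and 12.14 in KO-labelled cells with lysate, against 11.11 and 11.32 in KO-labelled cells alone. It was 12.44 and 12.39 in wild-type cells with lysate, against 11.19 and 11.10 in wild-type cells alone. Both libraries with lysate lay above both untreated ones in each genotype, and the untreated KO-labelled pair spread the most of its 4 groups (SD 0.15). Emp1 was 1.85-fold higher with lysate in KO-labelled cells (0.88 ± 0.077) and 2.40-fold higher in wild type (1.26 ± 0.077).

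Npy and Angptl2, the genes for secreted proteins, were also higher with lysate, by less in the KO-labelled cells. Npy (Entrez 109648) encodes neuropeptide Y, best known as a transmitter of neurons that acts on G protein-coupled Y receptors. Its log2 level was 9.05 and 9.19 in KO-labelled cells with lysate, against 8.28 and 8.14 in KO-labelled cells alone. It was 9.81 and 9.63 in wild-type cells with lysate, against 8.45 and 8.41 in wild-type cells alone. KO-labelled libraries were the lower ones in both treatments. The change was 0.91 ± 0.089 (1.89-fold) in KO-labelled cells and 1.29 ± 0.089 (2.45-fold) in wild type.

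Angptl2 (Entrez 26360) encodes a secreted glycoprotein of the angiopoietin-like family, studied in inflammation of fat tissue and vessels. Angptl2 read 9.34 and 9.39 in KO-labelled cells with lysate, against 8.56 and 8.50 in KO-labelled cells alone. It was 9.54 and 9.51 in wild-type cells with lysate, against 8.30 and 8.41 in wild-type cells alone. The KO-labelled libraries were the higher pair when untreated and the lower pair with lysate. The change was 0.83 ± 0.077 (1.78-fold) in KO-labelled cells, the smallest of the 7, and 1.17 ± 0.077 (2.26-fold) in wild type, again the smallest of the 7.

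Dio2 (Entrez 13371), which encodes type II iodothyronine deiodinase, the enzyme that turns the prohormone thyroxine into active triiodothyronine, had the largest lysate change of the 7 in each genotype and the smallest difference between the genotypes in that change. Its log2 level was 7.47 and 7.52 in KO-labelled cells with lysate, against 6.01 and 6.11 in KO-labelled cells alone. It was 7.57 and 7.26 in wild-type cells with lysate, against 5.93 and 5.82 in wild-type cells alone. The wild-type libraries with lysate spread around the KO-labelled ones, so those groups overlapped. The change was 1.44 ± 0.11 (2.71-fold) in KO-labelled cells and 1.54 ± 0.11 (2.91-fold) in wild type. Its levels lay below the library medians, where the scale understates changes.

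Rgl1 and Bcar3, the signalling genes, had nearly the same profile. Rgl1 (Entrez 19731) encodes an exchange factor that loads Ral GTPases with GTP. Rgl1 read 10.36 and 10.40 in KO-labelled cells with lysate, against 9.32 and 9.29 in KO-labelled cells alone. It was 10.60 and 10.42 in wild-type cells with lysate, against 9.24 and 9.26 in wild-type cells alone. The libraries with lysate lay above the untreated ones in each genotype, and the KO-labelled pair was the lower one with lysate and the higher one without. The change was 1.07 ± 0.075 (2.11-fold) in KO-labelled cells and 1.26 ± 0.075 (2.40-fold) in wild type.

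Bcar3 (Entrez 29815) encodes an adaptor that binds the Cas scaffold proteins at sites of cell adhesion and signals to the GTPases Rap and Rac. Its log2 level was 9.74 and 9.85 in KO-labelled cells with lysate, against 8.79 and 8.82 in KO-labelled cells alone. It was 10.07 and 9.95 in wild-type cells with lysate, against 8.76 and 8.83 in wild-type cells alone. Untreated libraries of both genotypes overlapped, and those with lysate did not. The change was 0.99 ± 0.077 (1.99-fold) in KO-labelled cells and 1.22 ± 0.077 (2.32-fold) in wild type.

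**Figure D1:**
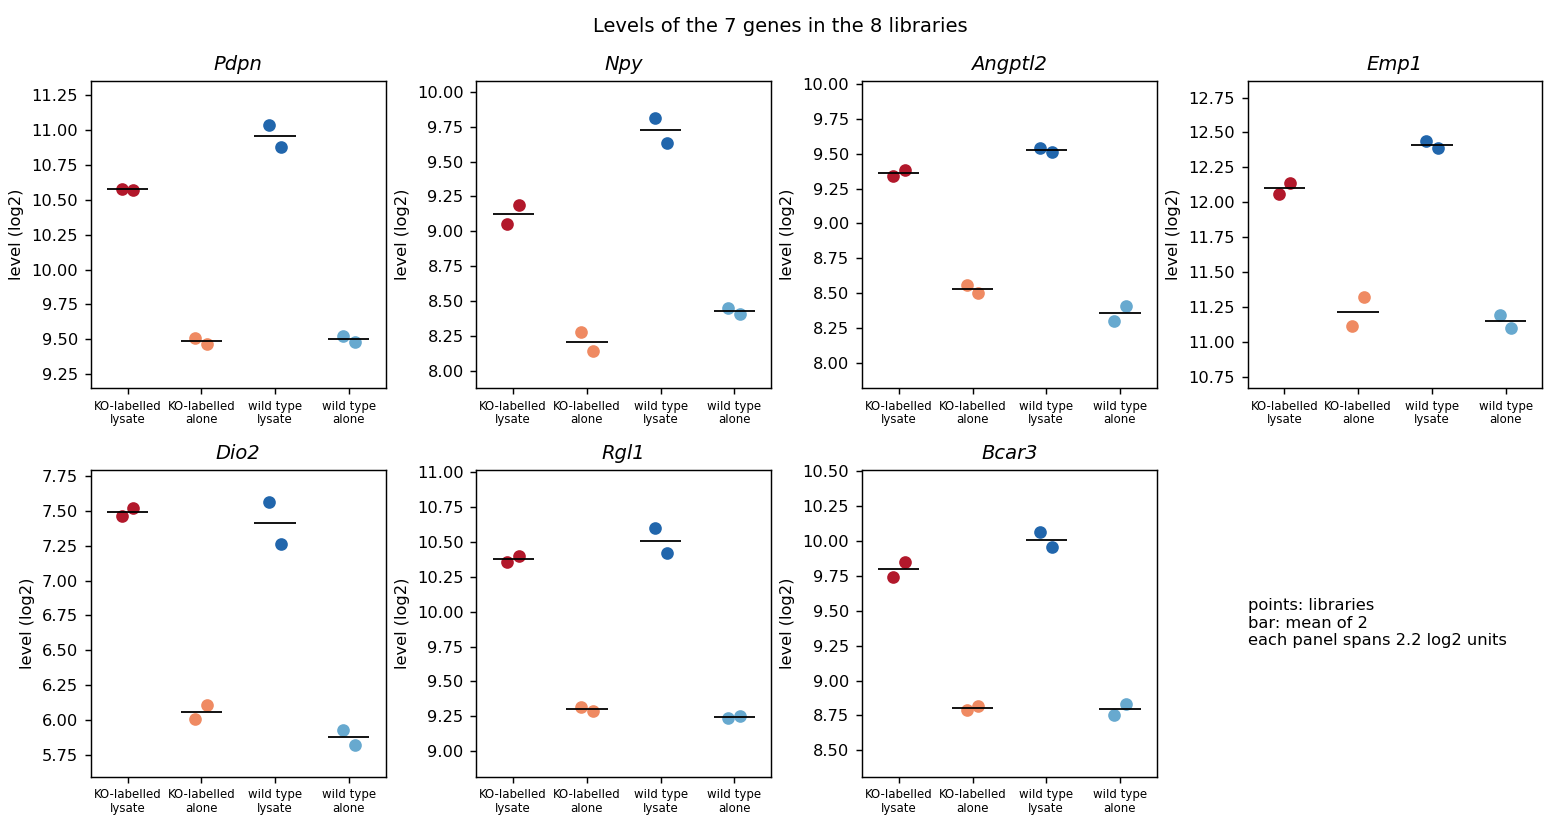
Log2 level of each of the 7 genes (vertical axis, each panel spanning 2.2 log2 units) in KO-labelled cells with lysate, KO-labelled cells alone, wild-type cells with lysate and wild-type cells alone; points are libraries and bars the mean of 2. In all 7 genes both lysate libraries lie above both untreated libraries of the same genotype, and Npy, Pdpn and Emp1 show the widest gaps between the genotypes with lysate.

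For all 7 genes both libraries with lysate lay above both untreated libraries in each genotype, as they did for 17.6% of the 11785 genes tested (28.9% in KO-labelled cells and 28.5% in wild type, each taken on its own). Over all genes 8.28% passed the test as higher with lysate in KO-labelled cells and 10.2% in wild type. By size of rise the 7 ranked between 4th (Dio2) and 31st (Angptl2) in KO-labelled cells, and between 5th (Dio2) and 13th (Angptl2) in wild type. The rule had no numeric threshold. Besides the 7, 6 genes rose by at least as much as the lowest of the 7 in both genotypes, and these were Akr1b8, Arg1, Cd36, Ctsl, Hmox1 and Ppbp, named after their values were seen. The median change of the 7 was 0.99 in KO-labelled cells, where the median of all genes was -0.0013, and 1.26 in wild type, where it was -0.010.

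The lysate change was smaller in KO-labelled than in wild-type cells for all 7 genes. It came to between 69.9% (Emp1) and 93.5% (Dio2) of the wild-type change on the log2 scale. The difference of the 2 changes, KO-labelled minus wild type, was -0.38 ± 0.11 for Emp1, -0.38 ± 0.13 for Npy, -0.37 ± 0.10 for Pdpn and -0.34 ± 0.11 for Angptl2. It was -0.22 ± 0.11 for Bcar3, -0.19 ± 0.11 for Rgl1 and -0.10 ± 0.15 for Dio2. Both parts of this difference chose the genes, so it is given without a test. Over all genes, limma called 0 of 11785 lower and 13 (0.11%) higher in this difference at an adjusted p of 0.05, and at an unadjusted p of 0.05 342 were lower and 638 higher. Over all genes 49.7% changed less, or fell more, in KO-labelled cells, and among the 643 genes (5.46% of all) that rose by the test in both genotypes 58.5% rose by less there. The 6 other genes with rises as large as the lowest of the 7 also rose by less in KO-labelled cells in 6 of 6 cases, with a median difference of -0.31. These 6 had to reach 1.17 in wild type but only 0.83 in KO-labelled cells, which favours genes with a smaller rise in KO-labelled cells, so their direction carries no weight of its own. For Dio2 the difference was 0.052 without wild-type lysate replicate 1, the opposite direction.

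**Figure D2:**
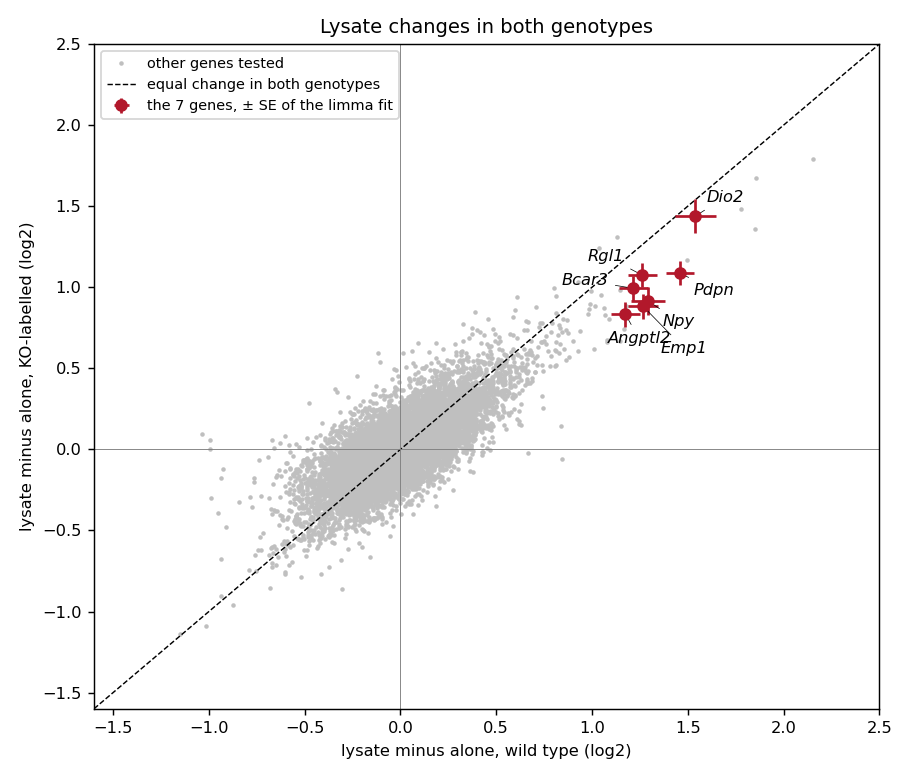
Lysate minus alone in KO-labelled cells (vertical axis, log2) against the same in wild-type cells (horizontal axis, log2) for all genes tested, with the 7 genes in red and bars for the SE of the limma fit. All 7 lie below the dashed line of equal change, with Dio2 nearest to it.

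KO-labelled cells had lower levels of Npy and Pdpn than wild type when both treatments were averaged, a comparison that in this balanced design is independent of the lysate changes that chose the genes. Npy differed by -0.41 ± 0.063 (0.752-fold, adjusted p = 0.000334) and Pdpn by -0.20 ± 0.052 (0.871-fold, adjusted p = 0.0115). These 2 of 7 were called lower and 0 higher, where 13.7% of all genes were called lower and 13.7% higher. The Pdpn difference was -0.38 with lysate and -0.014 alone, so its mean rests on the cells with lysate. Npy kept its call in each of the 19 alternatives run (adjusted p between 1.66e-05 and 0.0057), while Pdpn missed the threshold without KO-labelled lysate replicate 1 (adjusted p = 0.0548) or replicate 2 (adjusted p = 0.0502). Of the other 5, Emp1 differed by -0.12 ± 0.055 (adjusted p = 0.117), Bcar3 by -0.10 ± 0.055 (0.184), Rgl1 by -0.039 ± 0.053 (0.63), Angptl2 by 0.0049 ± 0.054 (0.959) and Dio2 by 0.13 ± 0.075 (0.218).

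With lysate, Npy, Pdpn and Emp1 were lower in KO-labelled than in wild-type cells. Npy differed by -0.60 ± 0.089 (0.659-fold, adjusted p = 0.00104), Pdpn by -0.38 ± 0.073 (0.767-fold, adjusted p = 0.00497) and Emp1 by -0.31 ± 0.077 (0.806-fold, adjusted p = 0.0191). These 3 of 7 were called lower, against 5.45% of all genes, and 0 higher, against 7.44%. Both KO-labelled libraries lay below both wild-type libraries for 6 of the 7 genes, all but Dio2, as they did for 31% of all genes, and lay above them for 0 of 7, against 29.6% of all genes. Bcar3 (-0.21 ± 0.077, adjusted p = 0.0839), Angptl2 (-0.17 ± 0.077, adjusted p = 0.167), Rgl1 (-0.13 ± 0.075, adjusted p = 0.264) and Dio2 (0.080 ± 0.11, adjusted p = 0.662) missed the threshold. This comparison shares the lysate libraries with the changes that chose the genes. It is also the untreated genotype difference plus the difference of the lysate changes, which was left untested. These 2 parts were -0.014 and -0.37 for Pdpn, 0.069 and -0.38 for Emp1, and -0.22 and -0.38 for Npy. The p-values with lysate and the 3 of 7 called are therefore not independent of the choice of genes. The count fell to 1, Npy, without wild-type lysate replicate 1, without KO-labelled lysate replicate 1 or without KO-labelled lysate replicate 2, and it was 6 after removal of each library's trend on transcript GC content and length, an alternative chosen after the data were seen. The call of Emp1 was also lost without wild-type lysate replicate 2. With the trends removed the calls over all genes rose too, from 1519 to 2542.

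Without lysate none of the 7 differed between genotypes by the test, where 9.23% of all genes were called lower in KO-labelled cells and 7.02% higher. At an unadjusted p of 0.05, limma had 1 of the 7 lower (Npy) and 1 higher (Angptl2). Of all 11785 genes it had 1765 lower and 1599 higher. Npy came nearest on the low side (-0.22 ± 0.089, adjusted p = 0.11), with both KO-labelled libraries below both wild-type ones, as for 26.4% of all genes. Angptl2 (0.18 ± 0.077, adjusted p = 0.145), Dio2 (0.18 ± 0.11, adjusted p = 0.29) and Rgl1 (0.055 ± 0.075, adjusted p = 0.695) had both KO-labelled libraries above both wild-type ones, also as for 26.4% of all genes. Emp1 (0.069 ± 0.077), Bcar3 (0.0090 ± 0.077) and Pdpn (-0.014 ± 0.073) overlapped between genotypes.

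**Figure D3:**
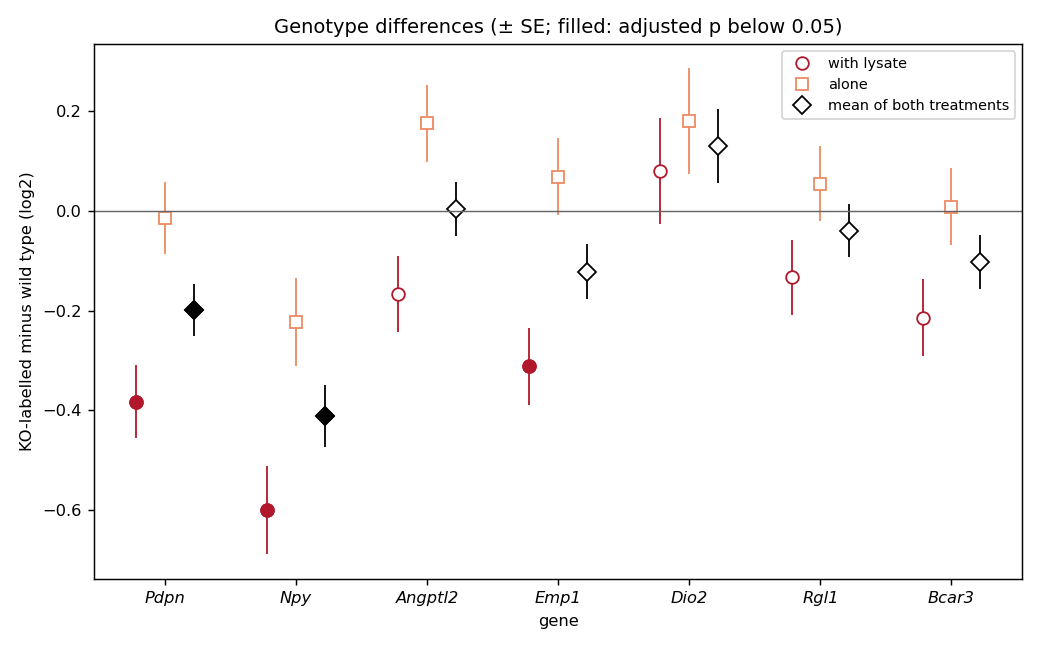
KO-labelled minus wild type (vertical axis, log2, ± SE of the limma fit) for each of the 7 genes with lysate (circles), alone (squares) and as the mean of both (diamonds); filled symbols passed the threshold of 0.05. Npy and Pdpn are filled with lysate and in the mean, Emp1 only with lysate, and no gene is filled alone.

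Markers of other cell types moved with the genotype label in the same libraries. In the mean of both treatments 13.7% of all genes were called lower in KO-labelled cells and 13.7% higher. Of 10 neutrophil markers, all 10 were lower in KO-labelled cells in the mean of both treatments, and their summed level (log2 of the sum of linear levels) was 12.57 to 12.69 in KO-labelled cells with lysate against 13.80 to 14.08 in wild type with lysate, and 12.65 to 12.75 in KO-labelled cells alone against 14.12 to 14.18 in wild type alone. Of 13 macrophage and monocyte markers 7 were lower and 0 higher, with sums of 15.62 to 15.67 in KO-labelled cells with lysate against 15.79 to 15.81 in wild type with lysate, and 15.62 to 15.70 in KO-labelled cells alone against 15.88 to 15.95 in wild type alone. Of 9 measured conventional dendritic cell markers 7 were higher and 1 lower, with sums of 15.60 to 15.62 in KO-labelled cells with lysate against 15.22 to 15.32 in wild type with lysate, and 15.66 to 15.80 in KO-labelled cells alone against 15.42 to 15.54 in wild type alone. Ccr7 (14.22 to 14.81) and Irf8 (13.58 to 14.23) had the highest levels of the 9 dendritic cell markers, so that sum mostly follows them. S100a9 (11.18 to 12.94) and S100a8 (10.01 to 11.93) weighed most in the neutrophil sum. The part of these marker shifts in the lower Npy, Pdpn and Emp1 was not tested. In bulk RNA, fewer cells of a type and less RNA per cell cannot be told apart. Of the 11 conventional dendritic cell markers listed, Xcr1 and Cd209a had no row, and Clec9a, a receptor for dead cells on cross-presenting dendritic cells, read 5.44 to 5.66 in the 4 KO-labelled libraries and 5.49 to 5.55 in the 4 wild-type ones, well below the library medians. Itgax, the integrin CD11c, was the 1 marker lower in KO-labelled cells (-0.24 ± 0.055, adjusted p = 0.00506), at 10.97 to 11.33 in KO-labelled libraries and 11.37 to 11.52 in wild-type ones. Flt3, the receptor of a dendritic cell growth factor, read 10.72 to 10.87 in KO-labelled libraries and 10.32 to 10.54 in wild-type ones.

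The same lists also moved with lysate. Of the 13 macrophage and monocyte markers 2 rose and 1 fell in KO-labelled cells, and 2 rose and 6 fell in wild type. Of all genes 8.28% rose and 6.92% fell in KO-labelled cells, and 10.2% rose and 11.3% fell in wild type. Those that rose were Mrc1, the mannose receptor (0.55 ± 0.078 in KO-labelled cells and 0.86 ± 0.078 in wild type), and Fcgr1, a high-affinity IgG receptor (0.60 ± 0.064 in KO-labelled cells and 0.58 ± 0.064 in wild type). Those that fell in wild type were Cx3cr1 (-0.845), Ly6c2 (-0.60), Cd14 (-0.54), Ccr2 (-0.49), C1qa (-0.32) and Csf1r (-0.30). In KO-labelled cells C1qa fell (-0.42). Of the 9 measured dendritic cell markers 4 fell and 0 rose in each genotype, and of the 10 neutrophil markers 2 fell in KO-labelled cells and 3 in wild type, with 0 rising. The part of these shifts in the lysate changes of the 7 genes was not tested.

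Transcripts of pigment cells moved with lysate. Of the 15 melanocyte genes listed 7 were measured, and 5 of these rose with lysate and 1 fell in each genotype. Dct, a melanin synthesis enzyme, read 6.20 and 6.13 in KO-labelled cells with lysate against 4.87 and 4.84 alone, and 5.80 and 5.95 in wild-type cells with lysate against 4.75 and 4.75 alone. Tyrp1 read 6.25 and 6.08 with lysate against 4.92 and 4.91 alone in KO-labelled cells, and 5.86 and 5.71 against 4.75 and 4.75 in wild type. The summed level of the 7 was 10.86 to 10.89 with lysate against 10.55 to 10.65 alone in KO-labelled cells. In wild type it was 10.94 to 11.01 against 10.72 to 10.80. Mitf (9.60 to 10.35) and Rab27a (8.88 to 9.32) had the highest levels, so the sum mostly follows them. The others of the 7 read at most 6.38. Mlana, Tyr and Sox10 had no row. With lysate Dct (0.29 ± 0.087, adjusted p = 0.0468) and Tyrp1 (0.38 ± 0.092, adjusted p = 0.0177) were higher in KO-labelled than in wild-type cells, whereas Npy, Pdpn and Emp1 were lower. How much of the rise of the 7 genes came from melanoma RNA was not tested.

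Podoplanin marks fibroblasts and lymphatic vessels in other tissues, so those markers were read as well. Of 12 fibroblast markers 6 were measured, and 0 rose with lysate in either genotype, while 2 fell in wild type, Col1a1 (-0.78 ± 0.099) and Col1a2 (-0.53 ± 0.099). The fibroblast sum was 11.84 to 11.88 with lysate against 11.96 to 11.96 alone in KO-labelled cells, and 12.17 to 12.42 against 12.33 to 12.37 in wild type. The collagen genes and Sparc read at most 6.44. Fn1 (11.46 to 12.08) had the highest level of the 6 measured, so the sum mostly follows Fn1. Between the genotypes 5 of these 6 were lower in KO-labelled cells in the mean of both treatments and 0 higher, with a median of -0.31; 4 were lower alone and 1 with lysate. Their part in the lower Pdpn of KO-labelled cells was not tested. Of 7 endothelial markers, Lyve1, Prox1, Flt4 and Tek had no row, and of the 3 measured Kdr (0.55 ± 0.085 in KO-labelled cells and 0.28 ± 0.085 in wild type) and Cdh5 (0.53 ± 0.12 and 0.46 ± 0.12) rose. The sum of these 3 was 9.21 to 9.24 with lysate against 8.69 to 8.73 alone in KO-labelled cells, and 9.17 to 9.38 against 8.98 to 9.02 in wild type. Kdr (8.45 to 9.18) had the highest level of the 3, so this sum mostly follows Kdr. Of 5 measured platelet markers 2 rose (Ppbp and Pf4) and 2 fell (Itga2b and Gp1ba) in each genotype. The platelet sum was 13.43 to 13.50 with lysate against 12.64 to 12.68 alone in KO-labelled cells, and 13.48 to 13.70 against 12.28 to 12.36 in wild type. Pf4 (11.99 to 13.33) and Ppbp (9.28 to 11.45) had the highest levels of the 5, so the sum mostly follows them. Itga2b, Gp1ba and Clec1b read at most 7.39. The part of endothelial or platelet RNA in the rise of the 7 genes was not tested. None of the markers listed for T and NK cells, B cells or erythroid cells had a row.

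Among the 7 profiles those of Dio2 and Npy stood furthest apart. Likeness was measured as the root mean square difference of the log2 profiles over the 8 libraries, each centred on its own mean. It was 0.056 for Rgl1 and Bcar3, the closest pair, and 0.35 for Npy and Dio2, the most distant. Among all other named genes, Mmp19, which encodes a matrix metalloproteinase, was the nearest to Bcar3 (0.047), Rgl1 (0.075) and Emp1 (0.078). Ctsl, the gene for the lysosomal protease cathepsin L, was nearest to Pdpn (0.10), Por, the electron donor of microsomal cytochromes, to Angptl2 (0.054), Cxcl3, a neutrophil-attracting chemokine, to Npy (0.12) and Cd36, a lipid scavenger receptor, to Dio2 (0.15). The next nearest profiles, 2 for each of the 7 genes, were those of Mgll, Dhrs9, Por, Nkain1, Akr1b8, Il1rn, Hmox1, Ctsl and Mmp19. All 8 libraries are shared by these profiles, so this is a description of the table and no evidence of shared control.

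The 7 transcripts had no common length or base composition. The longest annotated transcript ran from 566 bases (Npy) to 5815 bases (Dio2), where the median gene tested had 3397. Its GC content ran from 43.4% (Dio2) to 54.6% (Angptl2), where the median was 49.7%.

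Partners and relatives of the 7 genes were read from 7 lists of 80 genes, 60 of them measured. In KO-labelled cells 6 of 60 (10%) rose with lysate and 1 fell (1.67%), where 8.28% and 6.92% of all genes did. In wild type 8 (13.3%) rose and 6 (10%) fell, where 10.2% and 11.3% of all genes did. The shares that rose were near those of all genes, as was the share that fell in wild type, while the share that fell in KO-labelled cells was lower. The largest rise among the 60 was 0.59 in KO-labelled cells and 0.66 in wild type, both of Angptl4. Between the genotypes with lysate, 3 of 60 (5%) were higher in KO-labelled cells and 10 (16.7%) lower, where 7.44% and 5.45% of all genes were, and in the mean of both treatments 6 (10%) were higher and 17 (28.3%) lower, where 13.7% of all genes were called in each direction. The lysate calls of the 60, 21 over both genotypes, numbered 11 without wild-type lysate replicate 1, without KO-labelled lysate replicate 1 or without KO-labelled lysate replicate 2, and 12 without wild-type replicate 2 of the cells alone.

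Of 10 measured podoplanin partners 1 rose in KO-labelled cells and 3 in wild type, and 0 fell in either. Lgals8, a galectin that binds podoplanin glycans, rose by 0.30 ± 0.078 in KO-labelled cells and by 0.29 ± 0.078 in wild type. Cd44, the hyaluronan receptor, changed by 0.24 ± 0.083 in KO-labelled cells (adjusted p = 0.0694) and rose by 0.30 ± 0.083 in wild type. Cd9, a tetraspanin, changed by 0.020 ± 0.066 in KO-labelled cells (adjusted p = 0.865) and rose by 0.34 ± 0.066 in wild type. Cd9 (-0.43 ± 0.066) and Cd44 (-0.39 ± 0.083) were lower in KO-labelled than in wild-type cells with lysate, as Pdpn was. Without lysate Cd44 was lower as well (-0.33 ± 0.083, limma adjusted p = 0.0151). Cd9 (-0.11 ± 0.066, adjusted p = 0.322) and Pdpn were not called there. The list's median was 0.059 in KO-labelled cells and 0.15 in wild type.

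Of the relatives of Emp1, Emp2 rose in wild type (0.27 ± 0.078) and changed by 0.16 ± 0.078 in KO-labelled cells (adjusted p = 0.201), and Emp3 and Pmp22 were not called in either. With lysate Emp3 (-0.37 ± 0.075) and Pmp22 (-0.29 ± 0.065) were lower in KO-labelled than in wild-type cells and Emp2 (0.29 ± 0.078) higher. Without lysate, unlike Emp1, Emp3 (-0.41 ± 0.075, limma adjusted p = 0.00224) was also lower and Emp2 (0.40 ± 0.078, adjusted p = 0.00335) higher. Pmp22 was not called there (-0.17 ± 0.065, adjusted p = 0.0944). Of 7 measured genes of the angiopoietin-like family and its receptors, 3 rose in KO-labelled cells and 2 in wild type, and 0 fell. Angptl4, an inhibitor of lipoprotein lipase, read 8.19 and 8.18 in KO-labelled cells with lysate against 7.61 and 7.59 alone, and 8.42 and 8.55 in wild-type cells with lysate against 7.74 and 7.91 alone. Itgav, the integrin alpha V chain, rose by 0.44 ± 0.10 in KO-labelled cells and by 0.66 ± 0.10 in wild type. Itga5 rose in KO-labelled cells (0.28 ± 0.070).

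Only 3 of 10 genes for the processing and receptors of neuropeptide Y were measured. The Y receptor genes Npy1r, Npy2r, Npy4r and Npy5r had no row. Dpp4, a peptidase that trims neuropeptide Y, fell by 0.28 ± 0.080 in KO-labelled cells and by 0.25 ± 0.080 in wild type, while Pam and Furin, which process peptide precursors, were not called.

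In the thyroid hormone list Dio1 and Dio3, the other deiodinase genes, had no row. Of 9 measured genes 1 rose in KO-labelled cells, the receptor gene Thra (0.35 ± 0.084). In wild type 1 rose, Klf9, a known thyroid hormone target (0.36 ± 0.081), and 2 fell, Rxrb, a partner of the receptor (-0.41 ± 0.10), and Hr, a corepressor and target (-0.30 ± 0.091). The list's median was 0.15 in KO-labelled cells and 0.031 in wild type.

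All 15 genes listed for Ral signalling were measured, and 0 rose in either genotype, where Rgl1 itself was not in the list. Ralb, which encodes a Ral GTPase, fell in wild type (-0.23 ± 0.069) and changed by -0.11 ± 0.069 in KO-labelled cells (adjusted p = 0.327). The other exchange factors Ralgds and Rgl2 were not called. Of 13 measured Cas adaptor genes 1 rose in KO-labelled cells, Sh2d3c, a relative of Bcar3 (0.33 ± 0.095). In wild type 1 rose, the phosphatase gene Ptpra (0.31 ± 0.068), and 2 fell, Cass4, a Cas scaffold (-0.56 ± 0.11), and Src, the tyrosine kinase (-0.24 ± 0.079).

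**Figure D4:**
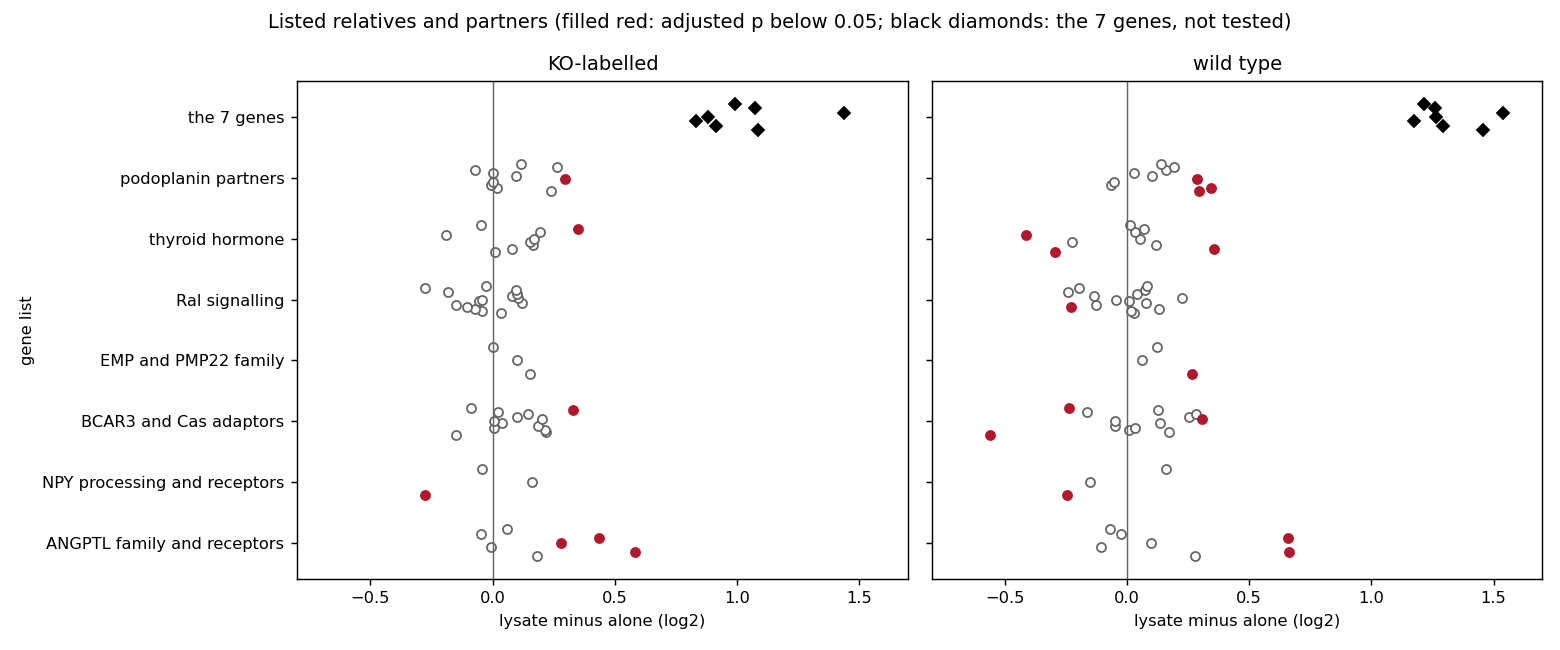
Lysate minus alone (horizontal axis, log2) in KO-labelled cells (left) and wild-type cells (right) for the measured genes of each list, filled red where the adjusted p was below 0.05, with the 7 genes as black diamonds on top. No listed partner or relative reaches the range of the 7 genes, and the nearest is Angptl4 at 0.59 in KO-labelled cells and 0.66 in wild type.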

How the data were processed

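RNA was sequenced with a stranded poly(A) kit, per the labels' protocols. The deposited log2 values were read as the authors' regularized logarithm of read counts per Entrez gene from DESeq2, an inference from the table's name and the submitters' processing notes, which name STAR, deepTools, DESeq2 and mm9. The counter, its strand setting, the annotation and the gene filter were not given in the sources used here. The 4 immunoprecipitation samples of the 12 were not analysed here.

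Identifiers were matched to symbols in RefSeq GRCm38.p6 (11744 of 11786). A gene entered the test if 1 group mean reached 4 (11785 did). The 4 groups of 8 libraries shared 1 model in limma 3.58.1 under R 4.3.3 (mean-variance trend, two-sided, Benjamini-Hochberg over all genes, threshold 0.05), with 4 residual and 9.33 prior degrees of freedom. The script was tested on simulated data. Figures used Python 3.11.15.

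The 7 genes, the lists and the motifs were chosen with earlier results of these data known. The genes named were the 7, up to 4 of each partner list with the smallest p, the 3 nearest profiles of each of the 7, Ythdf1, Dct, Tyrp1 and marker genes with no row; other markers were chosen after their values were seen. Alternatives were a replicate block, 2 filters, 2 scalings, 2 variance models, fewer groups, 2 thresholds and each library left out. A crossed block and removal of GC content and length trends were added after the data were seen.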

Additional observations from a re-analysis of the deposited data

Results flagged for a closer look

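For Angptl2 and Rgl1 the genotype difference had opposite signs in the 2 treatments, and it passed the threshold in neither. The signs were also opposite for Emp1 (0.069 alone, -0.31 with lysate) and Bcar3 (0.0090 alone, -0.21 with lysate), whose untreated libraries overlapped between genotypes. Of these, Emp1 was called with lysate and Bcar3 in neither treatment. The adjusted p of limma was 0.167 with lysate and 0.145 alone for Angptl2, and 0.264 with lysate and 0.695 alone for Rgl1. For Angptl2 and Rgl1 both KO-labelled libraries lay below both wild-type libraries with lysate and above both wild-type libraries alone. Of all genes 31% lay below with lysate and 26.4% above alone, each taken on its own. The share of genes with both was not counted. The difference of the lysate changes, KO-labelled minus wild type, was -0.34 for Angptl2 and -0.19 for Rgl1. This difference was not tested, since its parts chose the genes. No group had enough libraries to look for a single library far from the others.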

How the results depend on the processing

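Depth is unknown, so counting error could not be given, and with 2 libraries a group the calls rest on a spread shared by all groups. Replicate deviations correlated across genes at -0.61 between both untreated groups and 0.26 between both wild-type groups. The spread between replicates thus had a shared part, but equal replicate numbers did not pair the libraries throughout. With the replicate block 3 of the 7 genes were called between genotypes with lysate and 2 in the mean of treatments, as without it. With the crossed block, chosen after the data were seen, these counts were 4 and 3. The crossed block also raised the calls over all genes, from 1519 to 2638 with lysate and from 3224 to 4257 in the mean. The list genes called with lysate, summed over both genotypes, were 21, and 37 with the crossed block, 33 after removal of GC content and length trends (also chosen after the data were seen) and 7 at a threshold of 0.01. At that threshold 1 gene was called in the mean of treatments. With lysate 6 were called after removal of the trends, where the calls over all genes were 2542 against 1519. Leaving out 1 library gave 1 to 3 genes called with lysate, 1 to 3 in the mean of treatments, 0 alone, 11 to 30 list genes and a median wild-type lysate change of 1.20 to 1.35. Small values changed sign without 1 library: alone, Pdpn (-0.036 to 0.0084), Emp1 (-0.034 to 0.17) and Bcar3 (-0.030 to 0.048); with lysate, Dio2 (-0.073 to 0.23); in the mean, Angptl2 (-0.023 to 0.033) and Rgl1 (-0.083 to 0.0050); and in the difference of lysate changes, Dio2 (-0.25 to 0.052). After removal of the trends Bcar3 alone was -0.0098 and Angptl2 in the mean -0.033. The cause was not tested. The count of 0 genes called alone held in each of the 20 alternatives. Over all genes, the calls moved by more than 1.5 times: with lysate 1519, and 193 to 2057 without 1 library and 526 to 2638 in the other settings; in the mean of treatments 3224, 1973 to 3469 and 1907 to 4386; alone 1915, 1174 to 1865 and 956 to 3048; lysate in KO-labelled cells 1792, 564 to 2275 and 759 to 2919; lysate in wild type 2534, 1031 to 3152 and 1142 to 3749.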
